A study of Mus musculus with 18 samples.

Results

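The lost H3K4me3 peaks are the regions called for this histone mark in wild-type (WT) mouse hippocampus that shared no base with any region called in Arid1a conditional knockout (cKO) hippocampus. Of 25145 WT H3K4me3 peaks, 2210 (8.79%) were lost in this sense and 22935 were shared. The rule itself uses the H3K4me3 peak calls of both genotypes, so the lost peaks were selected on H3K4me3 calls, and their number and strength are given as a description, without a test.

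All mice were C57BL/6, and the tissue was whole hippocampus. WT and cKO mice of 3 weeks gave 1 chromatin immunoprecipitation (ChIP-seq) library per genotype for each of H3K4me3, H3K27ac and H3K27me3, with 1 input library per genotype. Polyadenylated RNA was sequenced from 2 WT and 2 cKO samples at postnatal day 21 (P21), and from 3 WT and 3 cKO samples at embryonic day 16.5 (E16.5). The labels call the knockout conditional, and neither the Cre driver nor the deleted cell types are given in the sources used here. Since the ChIP-seq has no replicates, no difference between genotypes in peaks could be tested, and the 95% Wilson intervals given for shares of peaks cover counting error only.

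H3K4me3 is deposited mainly by methyltransferases of the MLL/SET1 family and marks the nucleosomes around the start sites of active or poised genes, in a broad domain that extends into the gene. H3K27ac marks active promoters and enhancers, and H3K27me3 is the mark of Polycomb repression. ARID1A belongs to BAF, a SWI/SNF-type remodeller that uses ATP to slide or evict nucleosomes at promoters and enhancers.

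Arid1a RNA was lower in the libraries labelled cKO. It fell at P21 from 214.9 and 205.0 CPM (counts scaled to library size) in WT to 110.0 and 89.2 CPM in cKO, by 1.08 on the log2 scale (edgeR adjusted p = 0.00507, SE 0.13). The E16.5 libraries showed a fall by 0.64 (SE 0.058, adjusted p = 0.0320). The 3 WT H3K4me3 peaks at the Arid1a start site were all shared with cKO, at 13.3-, 6.61- and 16.2-fold enrichment in WT and 17.7-, 8.94- and 16.8-fold at the cKO peaks over them. Prox1, a marker of hippocampal dentate granule cells, was at 142.4 ± 4.90 CPM in WT at P21 (SD, n = 2). All 14 housekeeping genes with a WT peak at the start, out of 15 listed, kept a shared peak and had no lost one. The H3K4me3 libraries held 18488657 tags in WT and 17795796 in cKO, and the RNA libraries held 17662335 to 20332148 estimated counts.

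Sequences are shown for promoters next to lost peaks, as examples of how base composition varies. The windows of Pcp4 and Cyp4f16 have 0 bases under their lost peaks. These 2 are therefore not among the windows under lost peaks whose composition is described further on. The first 5 are at start sites among the lost peaks of highest WT enrichment, and the last is the gene whose RNA was lower at both ages. Each runs 5′ to 3′ on the gene's strand from 250 bases before the start site to 50 after it (RefSeq, GRCm38.p6), and capitals mark CpG dinucleotides, the sites of DNA methylation in mammals and the feature of CpG-island promoters.
Pcp4 (chr16:96467356-96467655, + strand): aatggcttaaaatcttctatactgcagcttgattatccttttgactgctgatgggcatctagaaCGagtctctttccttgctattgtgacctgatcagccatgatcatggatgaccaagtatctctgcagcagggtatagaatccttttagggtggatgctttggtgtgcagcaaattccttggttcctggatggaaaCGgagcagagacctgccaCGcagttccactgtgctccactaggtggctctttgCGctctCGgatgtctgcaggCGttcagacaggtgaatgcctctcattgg
E2f2 (chr4:136172024-136172323, + strand): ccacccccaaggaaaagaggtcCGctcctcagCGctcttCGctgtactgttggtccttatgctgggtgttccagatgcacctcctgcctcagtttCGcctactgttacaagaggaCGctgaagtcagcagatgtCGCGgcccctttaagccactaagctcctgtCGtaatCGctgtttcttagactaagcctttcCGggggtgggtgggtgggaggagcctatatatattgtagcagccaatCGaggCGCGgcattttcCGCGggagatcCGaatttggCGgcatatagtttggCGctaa
Zfp959 (chr17:55891843-55892142, + strand): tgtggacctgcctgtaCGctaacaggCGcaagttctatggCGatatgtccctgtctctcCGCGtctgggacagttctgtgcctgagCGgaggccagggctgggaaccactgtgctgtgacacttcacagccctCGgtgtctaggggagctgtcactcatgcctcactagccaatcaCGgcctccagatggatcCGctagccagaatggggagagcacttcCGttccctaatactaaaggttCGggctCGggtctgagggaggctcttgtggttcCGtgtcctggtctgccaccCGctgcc
Fam120c (chrX:151343973-151344272, + strand): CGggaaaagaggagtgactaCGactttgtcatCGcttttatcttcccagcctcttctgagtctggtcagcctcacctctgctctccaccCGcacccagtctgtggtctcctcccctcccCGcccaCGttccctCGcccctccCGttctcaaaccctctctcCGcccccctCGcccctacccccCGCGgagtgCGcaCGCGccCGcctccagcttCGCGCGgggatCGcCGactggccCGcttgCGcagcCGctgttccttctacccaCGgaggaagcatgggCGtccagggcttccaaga
Epha8 (chr4:136956767-136957066, − strand): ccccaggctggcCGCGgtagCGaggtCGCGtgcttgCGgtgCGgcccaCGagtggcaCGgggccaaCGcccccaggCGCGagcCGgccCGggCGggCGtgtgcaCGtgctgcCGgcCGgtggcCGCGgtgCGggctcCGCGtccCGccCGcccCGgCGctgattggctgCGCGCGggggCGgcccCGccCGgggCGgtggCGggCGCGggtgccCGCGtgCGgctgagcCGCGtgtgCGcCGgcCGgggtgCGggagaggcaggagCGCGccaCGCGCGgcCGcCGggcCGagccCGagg
Cyp4f16 (chr17:32536307-32536606, + strand): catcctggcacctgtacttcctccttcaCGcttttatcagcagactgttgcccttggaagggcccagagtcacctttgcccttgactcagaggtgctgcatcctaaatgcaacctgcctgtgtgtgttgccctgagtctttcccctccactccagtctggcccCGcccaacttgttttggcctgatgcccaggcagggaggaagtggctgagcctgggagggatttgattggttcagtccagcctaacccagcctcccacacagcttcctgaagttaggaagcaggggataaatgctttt
These windows ranged from 2 CpGs in Cyp4f16 and 6 in Pcp4 through 14 in Zfp959, 18 in E2f2 and 26 in Fam120c to 56 in Epha8, whose window was 84.3% G and C. The lost peak lay 155 bp from the Pcp4 start site, 83 bp from that of E2f2, 31 bp from that of Zfp959, 128 bp from that of Fam120c, 108 bp from that of Epha8 and 61 bp from that of Cyp4f16.

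Lost peaks were narrow and weak. Their median width was 208 bp against 751 bp for shared peaks, and the median fold enrichment over input was 5.12 (quartiles 4.52 and 5.83, highest 12.1) against 9.68 (6.19 and 14.5, highest 32.8). The median −log10 q, the peak caller's measure of significance, was 6.08 in lost and 25.05 in shared peaks. Lost peaks held 530 kb, or 2.51% of all bases under WT H3K4me3 peaks. When WT peaks were divided into deciles by −log10 q, 33.3% of the lowest decile were lost, then 27.4%, 17.9%, 6.95%, 1.74% and 0.157%, and in the highest 4 deciles 0 of 10027 peaks were lost, which allows a share of up to 0.0299%.

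**Figure D1:**
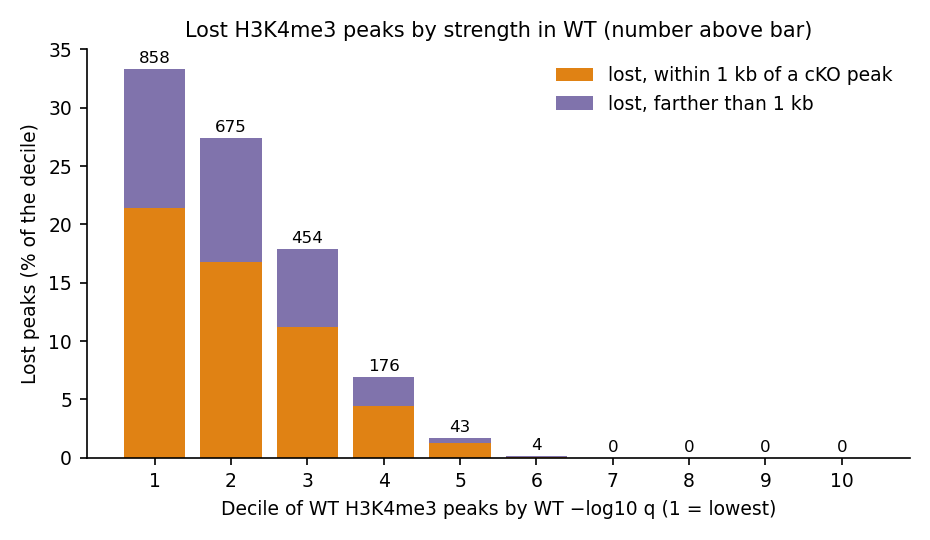
Share of WT H3K4me3 peaks that were lost (y axis, % of the decile) by decile of WT −log10 q (x axis, 1 is the lowest), split by whether a cKO peak lay within 1 kb, with the number lost above each bar. The lowest 3 deciles held 858, 675 and 454 of the lost peaks, and the highest 4 held none.

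The call threshold of each library bears on which weak peaks could match. The peak caller's minimum width was 156 bp in WT and 177 bp in cKO, and 671 lost peaks (30.4%) were narrower than the cKO minimum against 1036 (4.52%) of the shared ones. Each shared WT peak was paired with the cKO peak of largest overlap, and 17157 pairs were kept whose cKO peak had no other such partner. Further overlaps of either peak were not excluded. In these pairs the cKO enrichment was 0.964 times the WT value at the median. It was 1.15 times in the lowest 3 deciles and 0.855 times in the highest 3. A lost peak is therefore a region without a called cKO peak, and its H3K4me3 level in cKO was not measured here. The part of the calling threshold in the loss of weak peaks was not tested.

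At the edge of the rule, the lost peaks at Irf4 and Ticrr directly abutted a cKO peak with 0 bases between, and the shared peaks at Cracdl, Slc2a10 and nearest Gm33201 had 1 base in common with one. These abutting lost peaks had 3.88- and 3.63-fold enrichment. The 3 barely shared ones had 6.89-fold at Cracdl, 4.43-fold at Slc2a10 and 5.12-fold nearest Gm33201.

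Most lost peaks lay beside a cKO peak. The gap was at most 100 bp for 413 lost peaks, at most 250 bp for 903 (40.9%) and at most 1 kb for 1393 (63.0%), here called near lost peaks. The other 817 (3.25% of WT peaks) lay farther than 1 kb from any cKO peak and are called isolated. Their median gap was 21231 bp, and 121 lost peaks lay over 100 kb from a cKO peak. Of the near lost peaks, 1219 (87.5%) also lay within 1 kb of a shared WT peak, at a median of 234 bp over the near lost set. Of the isolated ones, 18 (2.203%) did. Both kinds had about the same strength, with median widths of 205 and 212 bp and median enrichments of 5.06- and 5.17-fold.

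Lost peaks lay in gene bodies more often, and at start sites less often, than shared peaks. Within 1 kb of an annotated start site lay 467 lost peaks (21.1%, interval 19.5 to 22.9%) against 62.1% (61.5 to 62.7%) of shared ones, while 55.1% of lost and 18.3% of shared peaks lay in a gene body away from a start. Between genes lay 16.8% of lost and 6.90% of shared peaks. A further 6.97% of lost and 12.7% of shared peaks lay within 1 kb of an end of a gene whose strand is not in the tables used here. The gap remained when only peaks of the lowest 3 deciles of WT −log10 q were compared, with 19.98% of 1987 lost peaks (18.3 to 21.8%) and 35.8% of 5585 shared peaks (34.5 to 37.0%) at a start site. Within these 3 deciles, 56.7% of lost and 42.5% of shared peaks lay in gene bodies.

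Near and isolated lost peaks differed in place. A start site lay within 1 kb of 26.0% of near lost peaks (23.8 to 28.4%) and 12.9% of isolated ones (10.7 to 15.3%). Between genes lay 7.90% of near (6.63 to 9.43%) and 32.1% of isolated ones (29.0 to 35.3%), and gene bodies held 58.4% and 49.4%. Isolated lost peaks thus had the smallest share at start sites of the 4 sets in the plot of positions. The split itself bears on this contrast, since isolated peaks were chosen for having no cKO peak within 1 kb. Of the 14754 genes with shared peaks only at the start, 12 had no cKO peak there. Those genes were grouped by having no lost peak at the start, so that count cannot explain the contrast. The part of the split in the contrast was not tested.

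**Figure D2:**
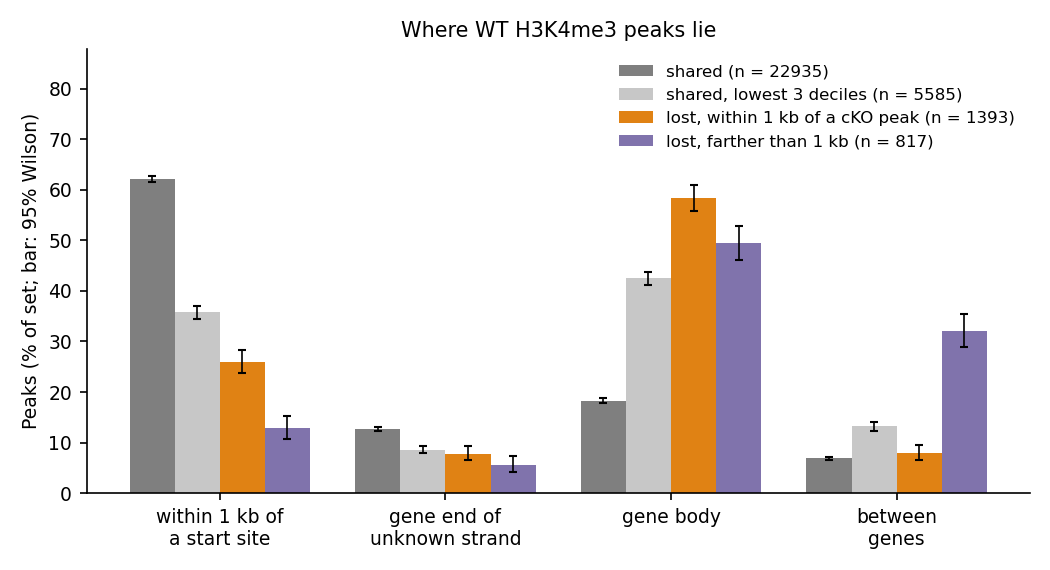
Share of peaks in each set (y axis, %) by position relative to genes (x axis), with 95% Wilson intervals of counting error. Start sites hold 62.1% of shared, 35.8% of weak shared, 26.0% of near lost and 12.9% of isolated lost peaks, and between-gene positions hold 32.1% of the isolated ones.

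Where a summit lay within 2.5 kb of a start site, its distance also differed. The median distance was 273 bp for 15624 shared peaks, 1119 bp for 729 near lost peaks and 465 bp for 156 isolated ones. Of the near lost peaks, 19.1% had their summit 1000 to 1500 bp and 27.4% 1500 to 2500 bp into the gene, against 4.19% and 4.85% of shared peaks. The interval from 0 to 500 bp into the gene held 35.5% of shared summits in its first 250 bp and 20.8% in its next 250 bp, and 6.04% and 1.92% of near lost summits. Isolated lost summits lay between the other sets, with 24.4% and 15.4% in the same intervals, 48.1% beyond 500 bp in either direction against 23.9% of shared summits, and 18.6% at 1500 to 2500 bp into the gene. The near lost peaks were chosen for lying beside a cKO peak without touching it, and this choice itself bears on their placement outside the first 500 bp.

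**Figure D3:**
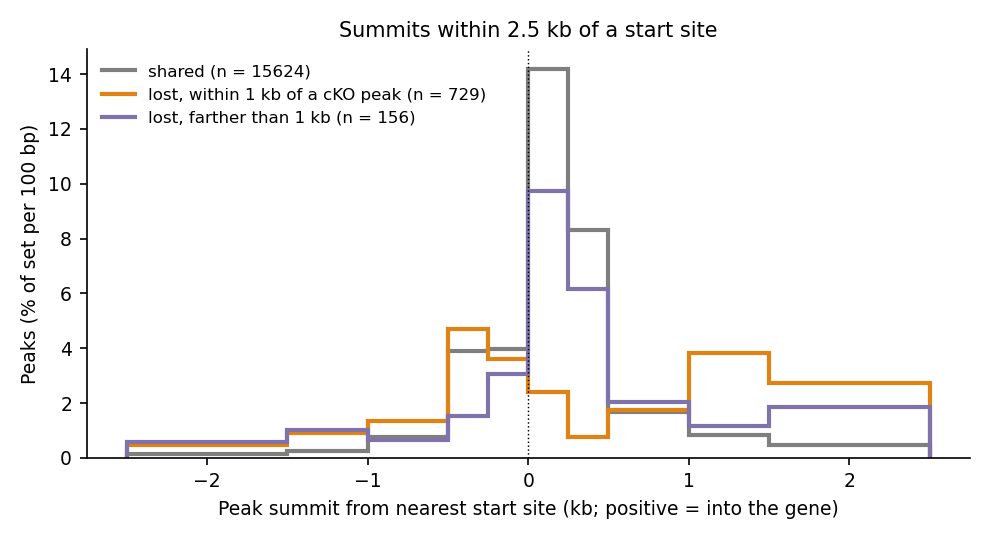
Position of peak summits relative to the nearest start site (x axis, kb, positive into the gene) as the share of each set per 100 bp (y axis, %), for summits within 2.5 kb. Beyond 500 bp from the start lie 23.9% of shared, 48.1% of isolated lost and 71.2% of near lost summits, and near lost summits have few in the first 500 bp of the gene.

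The 5 widest lost peaks lay at various distances from a start site. At Grm2, which encodes the metabotropic glutamate receptor mGluR2, an 888 bp WT peak inside the gene (chr9:106654443-106655330, 8.58-fold, 779 bp from the start site) had no cKO counterpart, and the nearest cKO peak lay 35 bp away. The widest lost peak was 1163 bp long, in Tnr, the gene of the extracellular matrix protein tenascin-R (chr1:159525389-159526551, 7.00-fold), 1620 bp into the gene. In Pcdh20, a protocadherin gene, 1004 bp were lost 3574 bp from the start site (chr14:88466819-88467822, 7.39-fold). In Kif26b, a kinesin family gene, the 1107 bp peak lay deep in the gene, 270073 bp from its start (chr1:178799198-178800304, 8.07-fold), under a WT H3K27ac peak of 4.66-fold with no cKO H3K27ac peak. These 4 were near lost peaks. The widest isolated one, 846 bp, lay 219 bp from a start site of Rcan2, a calcineurin regulator (chr17:43953218-43954063, 8.94-fold), with the nearest cKO peak 121843 bp away.

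The lost peaks of highest WT enrichment were mostly near lost. The highest of all, an exception, was an isolated peak between genes on chromosome 4 (chr4:147407281-147407601, 12.1-fold, −log10 q 28.5), 282234 bp from the nearest cKO peak and 4121 bp from the start of Gm46898. Next came Mast2, a microtubule-associated kinase gene (10.9-fold, in the gene body, 45 bp from a cKO peak), and Pcp4, the calmodulin-binding Purkinje cell protein 4 that marks CA2 pyramidal neurons (10.6-fold, 149 bp from one). E2f2, a cell cycle transcription factor, had 10.2-fold, the zinc finger gene Zfp959 10.1-fold, Fam120c 10.1-fold and the ephrin receptor gene Epha8 10.03-fold, with cKO peaks 181, 199, 86 and 241 bp away. Cndp2, Rprd2 and Dlg3 complete the highest 10, each at 9.72-fold. Of the genes with this peak at their start, Pcp4 had lower RNA at P21 (by 0.42 on the log2 scale, adjusted p = 0.0462, and 0.214, 0.249 and 0.0516 without WT replicate 1, WT replicate 2 or cKO replicate 2), while E2f2 (0.32 ± 0.31 SE), Zfp959 (−0.11 ± 0.31), Fam120c (−0.53 ± 0.18) and Epha8 (0.09 ± 0.26) did not pass the test.

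Among the isolated peaks, a stretch of chromosome 4 held several of the strongest, and the peaks named here were chosen after their values were seen. Between 146 and 148 Mb, 5 of 13 WT peaks were lost, all 5 of them isolated, where 8 cKO peaks were called. A lost peak lay on the start site of the zinc finger gene Zfp982 (chr4:147443000-147443496, 9.33-fold, 317953 bp from a cKO peak) and another 172 bp from that of Zfp984 (chr4:147809242-147809616, 8.55-fold). Zfp982 RNA was at 0.451 and 0.301 CPM in WT and 0.530 and 0.0501 CPM in cKO at P21, too low to be tested. Zfp984 RNA did not pass the test, at a log2 difference of 0.45 (SE 0.30). Other strong isolated peaks lay at the start sites of Aunip (chr4:134511065-134511341, 9.10-fold), Pifo (chr3:106001202-106001811, 8.94-fold) and, at 8.55-fold, a start site inside Cntnap2 (chr6:47244489-47244884), the gene of the neuronal adhesion protein CASPR2.

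Leaving out Y, where 0 of 4 peaks were lost, the lost share by chromosome went from 6.92% on chromosome 17 to 10.95% on chromosome 18, with 10.2% on X. Within 20 Mb of Arid1a on chromosome 4, a region that can carry flanking DNA of the targeted allele, 20 of 757 WT peaks (2.64%, 1.72 to 4.05%) were isolated lost peaks against 3.27% in the rest of the genome. The strongest isolated peak lay 13.7 Mb from Arid1a, inside that window. Also inside it were the isolated lost peaks at Zfp982, Zfp984 and Aunip and the near lost peaks at Mast2, E2f2 and Epha8. All of these are named above among the strongest lost or isolated peaks. The part of flanking DNA in their loss was not tested.

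Lost H3K4me3 peaks overlapped H3K27ac less often than shared ones. A cKO H3K27ac peak touched 205 lost peaks (9.28%, 8.14 to 10.6%) against 59.8% of shared ones, where all WT H3K4me3 peaks had 55.4%. Counting a cKO H3K27ac peak within 1 kb gave 39.1% of lost and 73.5% of shared peaks. A WT H3K27ac peak touched 126 (5.70%) against 37.1%, with 34.4% over all. Among peaks of the lowest 3 deciles, the WT H3K27ac shares were 5.74% of lost (4.80 to 6.85%) and 6.195% of shared peaks (5.59 to 6.86%), overlapping intervals, while cKO H3K27ac touched 9.16% of lost (7.97 to 10.5%) and 20.9% of shared peaks (19.8 to 21.98%). The cKO H3K27ac list was also the longer, with 24065 peaks against 13006 in WT. The cKO lists of H3K4me3, H3K27ac and H3K27me3 were called against the same cKO input library. The part of that shared input in the cKO shares of lost and shared peaks was not tested. In all, 1731 lost peaks (78.3%) touched no peak of either other mark in either genotype, against 29.8% of shared ones.

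**Figure D4:**
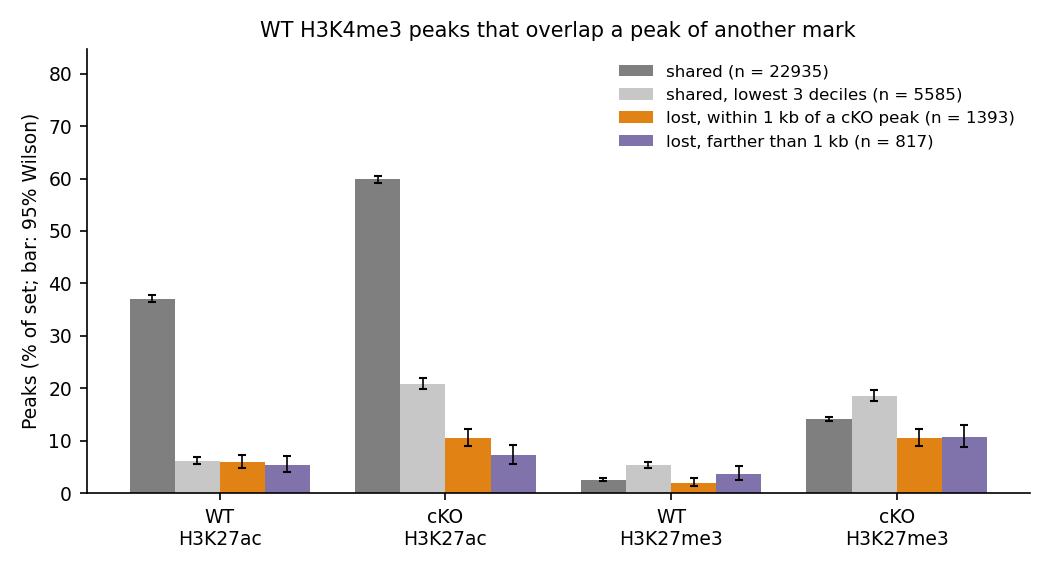
Share of WT H3K4me3 peaks in each set (y axis, %) that overlapped by at least 1 base a peak of the mark and genotype on the x axis, with 95% Wilson intervals. For cKO H3K27ac the shares are 59.8% of shared, 20.9% of weak shared, 10.5% of near lost and 7.22% of isolated lost peaks.

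Polycomb-marked regions made up a small part of the lost peaks. WT H3K27me3 touched 58 lost peaks (2.62%) and 2.60% of shared ones, beside 2.6% over all WT H3K4me3 peaks. In the lowest 3 deciles it touched 2.57% of lost (1.96 to 3.36%) and 5.32% of shared peaks (4.76 to 5.94%). cKO H3K27me3, whose list held 15659 peaks against 4124 in WT, touched 235 lost peaks (10.6%, 9.42 to 11.99%) and 14.1% of shared ones, with 13.8% over all. In the lowest 3 deciles these shares were 10.5% (9.24 to 11.9%) and 18.6% (17.6 to 19.6%), a smaller share of lost than of shared peaks at direct overlap. Counting a mark within 1 kb, over all peaks, gave 17.0% of lost and 16.4% of shared peaks. The order of 10.6% and 14.1% over all peaks therefore did not hold at that distance. The count within 1 kb was not made in the lowest 3 deciles. Of the 105 isolated lost peaks at a start site, 25 (23.8%, 16.7 to 32.8%) had cKO H3K27me3, against 13.0% of shared start-site peaks and 24.5% (22.7 to 26.5%) of shared start-site peaks in the lowest 3 deciles. The share at isolated start-site peaks was thus within the interval of weak shared peaks at start sites.

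Lost peaks under strong cKO H3K27me3 included some at genes of developmental regulators. In Tfap2c, an AP-2 transcription factor gene, the H3K27me3 peaks over the lost peak had 6.78-fold enrichment in WT and 18.9-fold in cKO, and at Foxl2, a forkhead gene, 8.96- and 16.6-fold. At Gm16551 a pair of lost peaks lay under the same H3K27me3 peaks, of 4.96- and 17.1-fold. The regions at these 3 genes had an H3K27me3 peak in WT already. At Rcan2, Epha8 and Grm2, by contrast, H3K27me3 was called in cKO only, at 6.31-, 6.49- and 3.89-fold.

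At the level of genes, 686 of 15440 genes with a WT peak at the start (4.44%) had a lost peak there. Of these, 501 also kept a shared peak and 185 had lost peaks only, of which 142 had no cKO H3K4me3 peak within 1 kb of the start. Of these 185 genes, 154 had a row in the count tables and 87 had enough counts to be tested at P21, or 56.5% of the 154, against 92.1% of genes with shared peaks only and 19.4% of genes with no WT peak. Since a gene can pass that filter through the group where it is high, the counts of calls that follow describe the tested genes alone.

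Of the 87 tested genes with lost peaks only, 3 were lower and 3 higher in cKO at P21, with edgeR's quasi-likelihood test at an adjusted p under 0.05. Over all 17407 tested genes, 3.91% were lower and 2.81% higher, so both counts were near the background. In either direction these were 6 genes, beside 6.72% over all. Their median log2 difference was 0.14 against 0.01 over all genes. WT and cKO libraries were without overlap in 52 of the 87, beside 56.1% over all genes. Of 82 such genes tested at E16.5, 24 had WT and cKO libraries without overlap, beside 29.2% over all genes, and 1 was lower (background 0.112%) and 0 were higher (background 0.0118%) by edgeR, with 16 (19.5%) and 1 (1.22%) at an unadjusted p under 0.05, beside 11.5% and 9.13% over all genes. DESeq2 called 8 lower and 1 higher, beside 4.31% and 2.43% over all genes. The E16.5 median was −0.31, against −0.01 over all genes and −0.30 for genes with no WT peak. The ChIP-seq is from 3 weeks, and no peak list of the embryonic age was used here.

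Cyp4f16, a cytochrome P450 gene, was the gene called at both ages. At P21 its RNA was 4.26 and 4.66 CPM in WT and 1.78 and 1.65 CPM in cKO. Both cKO libraries lay below both WT libraries, and the gene fell by 1.37 on the log2 scale (edgeR adjusted p = 0.0259, SE 0.26). Its level at E16.5 was 18.5, 15.3 and 15.9 CPM in WT and 6.79, 6.56 and 7.30 CPM in cKO, again without overlap, and fell by 1.26 (SE 0.12, adjusted p = 0.0376). Its isolated lost peak (chr17:32536618-32536881, 8.31-fold) had the nearest cKO peak 13960 bp away and no peak of another mark, and its promoter, printed above, held 2 CpGs in 300 bases. The P21 call did not hold without WT replicate 1 (adjusted p = 0.0584) or WT replicate 2 (adjusted p = 0.140), and the E16.5 call did not hold in 5 of the 6 fits that left out 1 library. Cyp4f16 belongs to a family of closely related genes, among which the authors' read assignment could divide reads.

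Ipcef1 and Pdyn passed the test at P21 and not at E16.5. Ipcef1, whose product interacts with the ARF6 exchange factor cytohesin, had 17.9 and 23.9 CPM in WT and 11.4 and 7.07 CPM in cKO, a fall of 1.17 on the log2 scale (SE 0.26, adjusted p = 0.0458). Its isolated lost peak was 778 bp wide and weak (chr10:6979284-6980061, 4.36-fold), 230168 bp from a cKO peak. That peak lay 220 bp from an internal start site, at position 6980281 of a minus-strand gene that spans 6885779 to 7054782. Pdyn, the gene of the opioid precursor prodynorphin made by dentate granule cells, had 14.7 and 16.3 CPM in WT and 9.74 and 6.92 CPM in cKO, a fall of 0.90 (SE 0.20, adjusted p = 0.0397). Its lost peak (chr2:129699125-129699903, 779 bp, 5.57-fold) lay 100075 bp from a cKO peak and under a cKO H3K27me3 peak that had no WT counterpart. For both genes the groups did not overlap, and the difference between ages was not significant (adjusted p = 0.127 and 0.811). Both calls ended without WT replicate 2 (adjusted p = 0.165 and 0.180), and that of Pdyn also without WT replicate 1 (0.0545).

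Bex1 was higher in cKO at P21, although a WT peak at its start was lost. It is a brain-expressed X-linked gene of a family with close copies, and had 19.5 and 21.6 CPM in WT and 29.5 and 31.6 CPM in cKO, a rise of 0.57 on the log2 scale (SE 0.12, adjusted p = 0.0377). Its isolated lost peak (chrX:136214953-136215246, 8.55-fold) lay 10891 bp from a cKO peak, and the call ended without WT replicate 1 (adjusted p = 0.233) and without WT replicate 2 (0.145). En1, a homeobox gene among the 3 called higher, had 2 and 0 estimated counts in WT and 24 and 22 in cKO. It passed the count filter only through the cKO libraries, so its call (adjusted p = 0.0216) had to come with a difference and is given as a description, and DESeq2 gave it no adjusted p. Its lost peak (chr1:120602884-120603131, 4.90-fold) lay 279 bp from a cKO peak at the same start and under H3K27me3 peaks of both genotypes, and the call ended without WT replicate 2 (adjusted p = 0.0820). In an edgeR fit of all 10 RNA libraries, Cyp4f16 kept its P21 call (adjusted p = 0.00834), and Ipcef1, Pdyn, Bex1 and En1 did not pass, at adjusted p = 0.0610 to 0.555. With upper-quartile scaling the calls of Ipcef1 (adjusted p = 0.0552) and Pdyn (0.0512) ended.

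**Figure D5:**
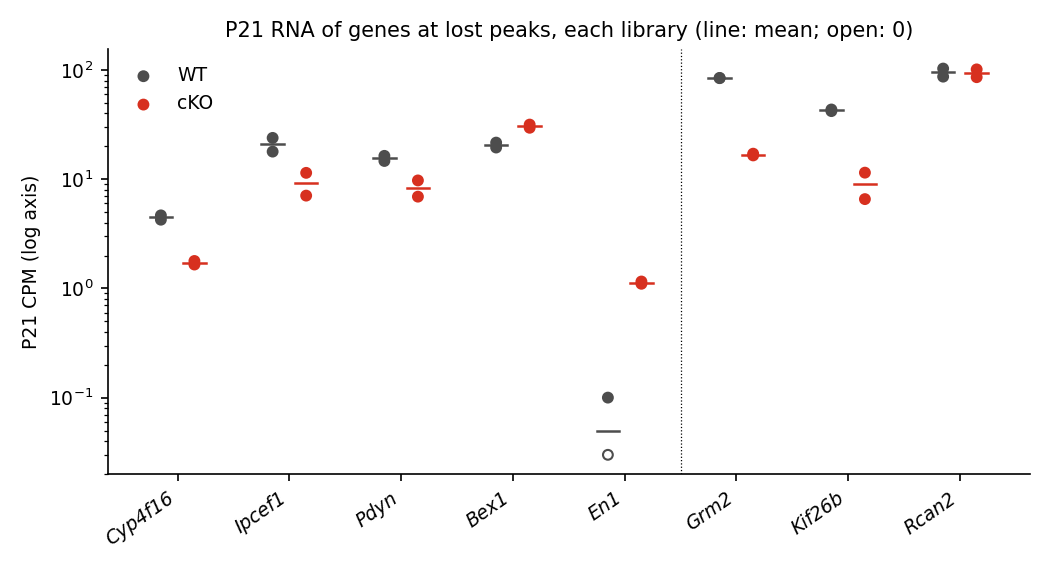
P21 RNA in CPM (y axis, log scale) of genes at lost peaks in each of 2 WT and 2 cKO libraries (x axis, gene), with a line at each mean and open circles for 0 counts, drawn at 0.03 CPM. Left of the dotted line are 5 called genes with lost peaks only, 3 of them lower and 2 higher in cKO, and right of it are 3 genes at wide lost peaks. Tnr and Pcdh20, also at the 5 widest, are not drawn and did not pass the test (log2 differences −0.42 and −0.14).

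Among the 501 genes that had both a lost and a shared peak at the start, the calls leaned to lower RNA. Of 410 tested at P21, 31 (7.56%) were lower and 7 (1.71%) higher, beside the 3.91% and 2.81% over all genes. Genes with at least 2 WT peaks at the start and none lost had 141 lower (3.15%) and 96 higher (2.14%) of 4482. With a window of 2.5 kb around the start, 73 of 927 genes with both kinds of peak (7.87%) were lower and 14 (1.51%) higher. The count of 31 rested on the libraries used. It was 58 of 415 (13.98%) without cKO replicate 1, beside 8.99% over all genes, and 6 of 417 (1.44%) without WT replicate 2, beside 1.60% over all genes, so without that library the share was not above the background. Their median was −0.02 against 0.01 over all genes. At E16.5 edgeR called 0 of 407 in either direction, with 47 lower (11.5%) and 45 higher (11.1%) at an unadjusted p under 0.05, beside 11.5% and 9.13% over all genes.

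The genes of this kind named next were chosen after their values were seen, from 31 with lower RNA that also included Rpe, H2bc6, Tomm40l, Ccdc28b and Dop1b. Grm2 fell from 84.5 and 84.0 CPM in WT to 17.1 and 16.5 CPM in cKO, by 2.33 on the log2 scale (SE 0.11, adjusted p = 0.000246). Prox1, the transcription factor of dentate granule cells, fell by 1.86 (139.0 and 145.9 to 50.1 and 28.5 CPM, adjusted p = 0.0315), and Trpc6, a cation channel gene expressed in those cells, fell by 1.28 (adjusted p = 0.0117). Robo3, an axon guidance receptor, fell by 1.68 (adjusted p = 0.00349), the immediate early gene Junb by 0.88 (adjusted p = 0.00639), the oligodendrocyte factor Olig1 by 0.66 (adjusted p = 0.0125), and Emx1, a homeobox gene of the dorsal forebrain, by 0.75 (adjusted p = 0.0462). The synaptic vesicle priming gene Unc13a fell by 0.63 from 458.7 ± 4.43 to 296.0 ± 5.74 CPM (SD, n = 2 and 2, adjusted p = 0.0136). The calls of Grm2, Robo3, Junb and Olig1 held with each P21 library left out in turn. Without WT replicate 2 those of Prox1 (adjusted p = 0.191), Trpc6 (0.0555), Emx1 (0.190) and Unc13a (0.100) ended, and without WT replicate 1 those of Prox1 (0.172), Emx1 (0.202) and Unc13a (0.0633). In the fit of all 10 RNA libraries Robo3 (adjusted p = 0.110), Olig1 (0.191), Prox1 (0.0592) and Trpc6 (0.107) did not pass, while Grm2, Junb, Emx1 and Unc13a did. Emx1 also failed with upper-quartile scaling (0.0572), DESeq2 (0.0685) and the replicate block (0.0801), and Prox1 with no filter on low counts (0.139). In these bulk samples, fewer cells of a type and less RNA per cell cannot be told apart. Of the listed dentate granule genes 7 of 13 fell and 0 rose, and of immediate early genes 10 of 15 fell and 1 rose. Of oligodendrocyte genes 12 of 17 fell and 0 rose. Over all tested genes 3.91% fell and 2.81% rose. Other lists differed. Of microglia genes 7 of 16 fell and 0 rose, of striatal genes 0 of 11 fell and 3 rose, and of pyramidal neuron genes 1 of 14 fell and 3 rose. These counts include genes with and without a lost peak. The part of these shifts in the falls at lost peaks was not tested.

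The genes with higher RNA and both kinds of peak were fewer. Cntnap2 rose from 108.8 and 111.2 CPM in WT to 154.7 and 155.5 CPM in cKO, by 0.50 on the log2 scale (adjusted p = 0.0280), while its lost peak lay at an internal start site and a shared peak remained at another. Hmgb3, a chromatin protein gene, rose by 1.19 (adjusted p = 0.00684), Epop, which encodes a partner of Polycomb repressive complex PRC2, by 1.06 (adjusted p = 0.0130) and Myb, a transcription factor gene, by 1.91 (adjusted p = 0.0356). RNA also changed at a lost peak away from a start. Kif26b RNA fell from 42.0 and 43.4 CPM to 11.5 and 6.57 CPM, by 2.24 (SE 0.25, adjusted p = 0.00817). Without WT replicate 2 the calls of Cntnap2 (adjusted p = 0.176), Epop (0.0553) and Myb (0.155) ended, as did those of Cntnap2 without WT replicate 1 (0.174) and Myb without cKO replicate 1 (0.0558), while Hmgb3 and Kif26b passed with each library left out. In the fit of all 10 RNA libraries Kif26b (adjusted p = 0.0580) and Cntnap2 (0.386) did not pass, and Cntnap2 also failed with the replicate block (0.0738). Rcan2, Mast2 and Rprd2, at other wide or strong lost peaks, had log2 differences of −0.02, −0.12 and 0.16 and did not pass the test. Tnr, Pcdh20, Dlg3 and Cndp2, also at such peaks, had −0.42, −0.14, −0.38 and 0.28. These did not pass either (edgeR adjusted p = 0.0598 to 0.676).

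Of the gene lists for hippocampal and other cell types, each had at most 3 members with a lost peak at the start, too few to read a share against the 4.44% over all genes. Both kinds of peak were found at Pcp4 of 11 pyramidal neuron genes with a WT peak, Prox1 and Trpc6 of 11 dentate granule genes, Junb of 15 immediate early genes, Olig1 of 7 oligodendrocyte genes, Slc1a3 of 7 astrocyte genes, Irf8 of 3 microglia genes, Tcf7l2 of 8 thalamus and cortical hem genes, and Foxl2 and Bhlhe22 of 11 developmental transcription factors. Dlx1 of the interneuron list, Abcc9 of the vascular list, Col1a1 of the meningeal list, Lmx1a of the thalamus and cortical hem list and Dcx of the neuroblast list had lost peaks only at the start. A cKO H3K4me3 peak that did not touch the WT peak still lay within 1 kb of the start of Dlx1, Abcc9, Lmx1a and Dcx. Col1a1 had no cKO peak there. Dlx1, a homeobox gene of GABAergic neurons, had 41.4 ± 0.212 CPM in WT and 39.7 ± 9.77 CPM in cKO at P21 (SD, n = 2 and 2), and Dcx, the microtubule protein doublecortin of young neurons, had 21.8 ± 1.36 and 16.6 ± 2.32 CPM. The log2 difference was −0.06 for Dlx1, 0.30 for Abcc9, −0.10 for Col1a1, 1.52 for Lmx1a and −0.39 for Dcx. None of the 5 passed the test at P21. Of 69 developmental transcription factors, 11 had a WT peak at the start and 3 of these a lost one. Among 27 BAF subunit genes with a WT peak, Actl6a had a lost peak beside a shared one, and among 17 genes of H3K4 methyltransferases, demethylases and readers with a WT peak, 0 had a lost one. Microglia genes mostly had no WT H3K4me3 peak at the start, 13 of 16, so the lists of rarer cell types say little here.

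The promoters at lost peaks were intermediate in CpG content. Of 32851 RefSeq promoter windows, 120 overlapped a lost and no shared peak, and their median ratio of observed to expected CpGs was 0.534 with 54.3% G and C. Windows under shared peaks had 0.790 and 62.7% (n = 13332), windows under shared peaks of the lowest 3 deciles only had 0.604 and 58.7% (n = 665), and windows under no WT peak had 0.208 and 47.7% (n = 19305). The 47 windows under isolated lost peaks had a median ratio of 0.454. A ratio over 0.6, a usual limit for CpG islands, was reached by 44.2% of windows at lost peaks, 78.4% at shared peaks and 50.8% at weak shared peaks.

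Short motifs were searched on both strands of these windows as plain letters. The GC box GGGCGG was in 40.0% (31.7 to 48.9%) of windows at lost peaks, 69.0% at shared peaks, 56.8% (53.0 to 60.6%) at weak shared peaks and 35.7% of all windows. The letters TGANTCA, the form bound by AP-1 factors, were in 17 of 120 windows at lost peaks (14.2%, 9.04 to 21.5%), 3.78% at shared peaks, 5.56% (4.06 to 7.57%) at weak shared peaks and 7.81% of all windows. TATAAA was in 12.5% (7.72 to 19.6%) of windows at lost peaks, 5.56% at shared, 9.17% at weak shared and 13.6% of all. Windows under no WT peak held GGGCGG in 12.4%, TGANTCA in 10.6% and TATAAA in 19.2%. Their TGANTCA share thus lay within the interval of windows at lost peaks. Other motifs that were searched are not reported here. A match is a description of the letters and not of binding. The Cyp4f16 window above also holds TGANTCA and GGGCGG, but it has 0 bases under its lost peak and is not among the 120.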

How the data were processed

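The members and the gene lists were chosen with earlier results of these data known. Peak coordinates are on GRCm38. The authors deposited MACS2 peak lists, 1 per ChIP-seq library against the input of its genotype. Each peak has a pileup signal, a fold enrichment ratio, a −log10 p-value and a −log10 q-value, per the file headers. These are the authors' values. The headers give version 2.2.7.1 and a q limit of 0.01, while the submitters' processing notes name MACS2 2.2.5 and Bowtie2 2.3.5.1. The authors deposited estimated counts per gene, made with Salmon 1.0.0 per the submitters' processing notes; they were rounded here.

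A WT peak was shared if at least 1 base overlapped a cKO peak (checked with bedtools 2.31.1). Start sites came from RefSeq promoter windows (27025 genes, GRCm38.p6), which include none of chromosome 18 and 17492 of 21900 protein-coding genes; other genes were placed within 1 kb of either end. No exon annotation was used. Of 17407 genes tested at P21, 88.5% matched RefSeq. RNA was tested at each age with edgeR 4.0.16 (quasi-likelihood, TMM scaling, filterByExpr, Benjamini-Hochberg adjustment, limit 0.05), with DESeq2 1.42.0 as an alternative. On simulated counts, 56% of 2-fold and 88% of 4-fold changes were recovered at P21 over 17407 genes, with 37 false among 181 calls, and 40% and 65% at E16.5 over 16958 genes, with 11 false among 116. The labels call the RNA samples biological replicates.

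Named peaks were the 10 of highest WT enrichment, the 5 widest, the 5 under the strongest cKO H3K27me3 and 3 on each side of the rule. Named genes were up to 8 lowest and 8 highest P21 log2 differences past the limit among genes with lost peaks only, with at least 1 CPM in the higher group and no overlap of groups, and listed genes with lost peaks only. Others are named as chosen after their values were seen. Some items that these rules select are not reported here. Promoters were taken from these genes in order, 6 in all.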

Additional observations from a re-analysis of the deposited data

How the results depend on the processing

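The count of 2210 lost peaks became 1466 when WT peaks needed a −log10 q of at least 5 and 817 when a cKO peak within 1 kb counted as a match, and rose to 3218 when at least 50% of a WT peak had to be covered and to 2788 with equal numbers of peaks by q-value. The 21.1% of lost peaks at a start site became 24.7% when at least 50% of a WT peak had to be covered by cKO peaks, 12.9% with matching within 1 kb, 23.3% with the stricter q and 41.4% with a start window of 2.5 kb (shared peaks 68.8%). Under each of these the share at shared peaks was higher. The 9.28% of lost peaks on cKO H3K27ac became 11.5% with 50% coverage, 7.22% with matching within 1 kb, 10.8% with equal numbers of peaks by q-value, 39.1% (shared 73.5%) with a mark within 1 kb and, in an alternative added after seeing the data, 7.42% with the summit of the WT peak (shared 53.5%). The 10.6% on cKO H3K27me3 became 12.8% with 50% coverage, and 17.0% with a mark within 1 kb, then above the 16.4% of shared peaks.

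At P21, the 3 genes lower among those with lost peaks only became 6 with no filter on low counts, 1 with upper-quartile scaling, 10 with 50% coverage, 7 with equal numbers of peaks and 5 with a 2.5 kb window, and 2 to 11 when each library was left out. The 3 higher became 0 in a fit of all 10 RNA libraries, 8 with no filter and 7 with 50% coverage, and 2 to 9 when each library was left out. At E16.5, the 1 lower gene became 8 with DESeq2, 3 in the fit of all 10 libraries and 2 with no filter, and 0 to 1 when each library was left out, and 0 higher became 1 with DESeq2. The cause of these shifts was not tested.

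Whether the replicate numbers pair the samples was not settled. Deviations of same-numbered libraries from their group means correlated at −0.02 at P21 and at −0.26, −0.08 and −0.54 at E16.5. With so few libraries per group, these deviations offset one another by construction, so the correlations cannot decide it. A fit with the replicate number as a block gave 2 lower and 3 higher genes with lost peaks only at P21, and 0 lower at E16.5, and the P21 calls of Ipcef1 (adjusted p = 0.0554) and Bex1 (0.0617) ended. With the block, genes with both a lost and a shared peak had 18 lower at P21 in place of 31 (4.39%, beside 2.88% over all genes), and with upper-quartile scaling 20 (4.88%, beside 2.98%). The 1 ChIP-seq library per mark and genotype limits every statement on peaks to these libraries.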
